A study of Homo sapiens with 8 samples.

Results

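The MYC, MAX and MXD network was examined in LNCaP cells on arrays labelled siGATA2 and siControl. Its members are MYC, MYCN and MYCL, their partner MAX, and the proteins that take MAX away from them, MXD1, MXD3, MXD4, MXI1, MNT and MGA. Members were chosen by name, with earlier results of these data known. A probe was counted as theirs when the RefSeq accession of the array annotation belonged to 1 of these 10 genes. They were measured by 20 of the 35514 probes tested and make up 10 of the 28850 genes tested. All 20 probes passed the filter on low values, and 18 were well above background on all 8 arrays.

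LNCaP is a human prostate cancer cell line that depends on the androgen receptor and was kept in RPMI-1640 with fetal bovine serum. The study asked which genes change when the transcription factor GATA2 is silenced, and transfected these cells with 30 nM of an siRNA against GATA2 (siGATA2) or of a scrambled siRNA (siControl). RNA of whole cultures was taken 72 h later. The labels number 4 replicates in each group, and each was hybridized to its own one-colour Agilent array. The methods do not say whether the replicates were separate cultures. The siGATA2 group rests on 1 siRNA product in 1 cell line. In RNA of whole cultures, fewer cells of a type and less RNA per cell cannot be told apart.

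MYC proteins bind DNA only in a pair with MAX, chiefly at the E-box CACGTG, and raise genes for ribosome assembly, nucleotide and polyamine synthesis and cell division. MXD proteins, MNT and MGA pair with the same MAX at the same E-box and bring corepressors of the SIN3, NCOR or Polycomb kind, so that the balance between partners of MAX is a classical switch between growth and differentiation. MYC mRNA and protein turn over quickly, and the MYC gene is often gained in advanced prostate cancer.

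The E-box is the sequence that the network reads, so the windows around it are shown for the members that carry it and for 4 target genes. Promoters of RefSeq (assembly GRCh38.p14), from 250 bases before to 50 after the start of a gene, were searched for CACGTG, which reads the same on both strands. The motif lay in 7.43% of 27305 promoters. Promoters were matched for 9 of the 10 members. No promoter was matched for MYC, which was therefore not searched. Of the 9, 2 (22.2%) held the motif, MXD4 with its first base 238 bases and MNT with its first base 193 bases upstream of the start. The windows are written from 5′ to 3′ on the strand of the gene, with the E-box in capitals. They lie at chr4:2262315-2262359 (minus strand) for MXD4 and at chr17:2401221-2401280 (minus strand) for MNT.
MXD4: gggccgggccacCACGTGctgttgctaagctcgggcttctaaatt
MNT: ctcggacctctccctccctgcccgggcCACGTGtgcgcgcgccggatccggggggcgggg
Among known MYC-induced genes the motif was found in 11 of the 26 promoters matched (42.3%), and the windows of SRM, CDK4, LDHA and HSPD1 are given because they hold it upstream of the start and, with their values known, because SRM and CDK4 were called lower and LDHA and HSPD1 were not. They lie at chr1:11060185-11060244 (minus strand), chr12:57752494-57752553 (minus strand), chr11:18394351-18394410 (plus strand) and chr2:197500330-197500389 (minus strand). The CDK4 promoter holds 3 copies, of which the window shows 2. The HSPD1 window is also part of the promoter of HSPE1, which is read from the opposite strand, and its E-box is counted for both genes.
SRM: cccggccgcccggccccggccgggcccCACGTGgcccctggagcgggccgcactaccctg
CDK4: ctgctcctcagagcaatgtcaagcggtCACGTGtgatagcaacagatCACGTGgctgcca
LDHA: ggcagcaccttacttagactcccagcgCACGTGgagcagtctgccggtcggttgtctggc
HSPD1: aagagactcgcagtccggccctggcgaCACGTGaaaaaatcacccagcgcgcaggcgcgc
The GATA-type motifs AGATAA and TGATAA, read on both strands, lay in 10.5% and 7.76% of all promoters and in 0 of the 9 member promoters. This says only that these letters are not in these windows, and the MYC promoter was not among them.

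Values below are log2 processed signals after quantile normalization over the 8 arrays, and a difference is the mean of the siGATA2 arrays less that of the siControl arrays on that scale. Differences were called at an adjusted p under 0.05 from limma with Benjamini-Hochberg adjustment over all 35514 probes. The signal of GATA2 itself, read by its brightest probe alone, was not lower in the arrays labelled siGATA2. Its mean was 12.03 ± 0.632 (SD, n = 4) in siGATA2 and 11.35 ± 0.273 (SD, n = 4) in siControl, a difference of 0.68 (SE 0.311, adjusted p = 0.151), with ranges of 11.40 to 12.61 and 11.10 to 11.74. The probe gave 12.61, 12.54, 11.57 and 11.40 on siGATA2 arrays 1 to 4 and 11.74, 11.28, 11.10 and 11.29 on siControl arrays 1 to 4. This probe therefore does not check the labels, and each direction given here rests on the group named on the label. Probes well above background numbered 34108 to 36729 on the siGATA2 arrays, 34570 and 33737 on siControl arrays 2 and 4, and 28292 and 23994 on siControl arrays 1 and 3. The deviation of siControl array 1 from its group mean correlated across probes at 0.53 and 0.54 with those of siGATA2 arrays 1 and 2, and at -0.53 and -0.50 with those of siGATA2 arrays 3 and 4. Deviations cancel out within a group, so the negative values are no separate observation. Among siGATA2 arrays the deviations correlated at 0.77 for arrays 1 and 2 and at 0.62 for arrays 3 and 4. Arrays siGATA2 1 and 2 and siControl 1 carry the letters A and B in their titles and the other 5 the letters D to G. What the letters stand for is not given, so results are also given among letters D to G only, 2 arrays against 3. Of all genes tested, 14.2% were called lower and 12.3% higher, so that 53.7% of the calls by probe were lower. That share was 93.4% when arrays were scaled to their E1A spike-in probes, under which the median of all probes moved from 0.08 to -0.43 and siControl array 1 had a spike-in signal below all others. With that array left out, the spike-in share was 70% and the median -0.01. All 11 LNCaP markers tested were well above background on all 8 arrays, and 5 of them were called lower, led by SLC45A3, KLK2 and KLK3, and 1 higher, KRT8. Of 4 fibroblast markers tested 0 were called by limma, 0 at an unadjusted p under 0.05 and 0 by the methods' t-test, 1 of 4 endothelial markers was lower (VWF, -0.96), and 2 of 5 immune markers were higher (CD68, 2.00, and PTPRC, 0.87). The mean signal of the immune list ran from 7.57 to 7.63 in siGATA2 and from 6.77 to 7.10 in siControl, and its part in the results below was not tested.

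MYC was lower and MXD1, an antagonist of MYC, was higher in the arrays labelled siGATA2, and these were the only members called at 2-fold or more. Of the 10 genes, each taken by its brightest probe, 5 were called lower (MYC, MAX, MXD3, MXD4 and MXI1), against 14.2% of all genes. MXD1 alone was called higher, against 12.3% of all genes. The calls at 2-fold or more, MYC lower and MXD1 higher, stand against 7.14% and 4.56% of all genes. The groups did not overlap for the same 6 genes, against 32.6% of all genes. By probe, 8 of the 20 were lower and 2 higher, against 14.5% and 12.5% of all probes. The median difference of the members was -0.44, against 0.09 over all genes.

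**Figure D1:**
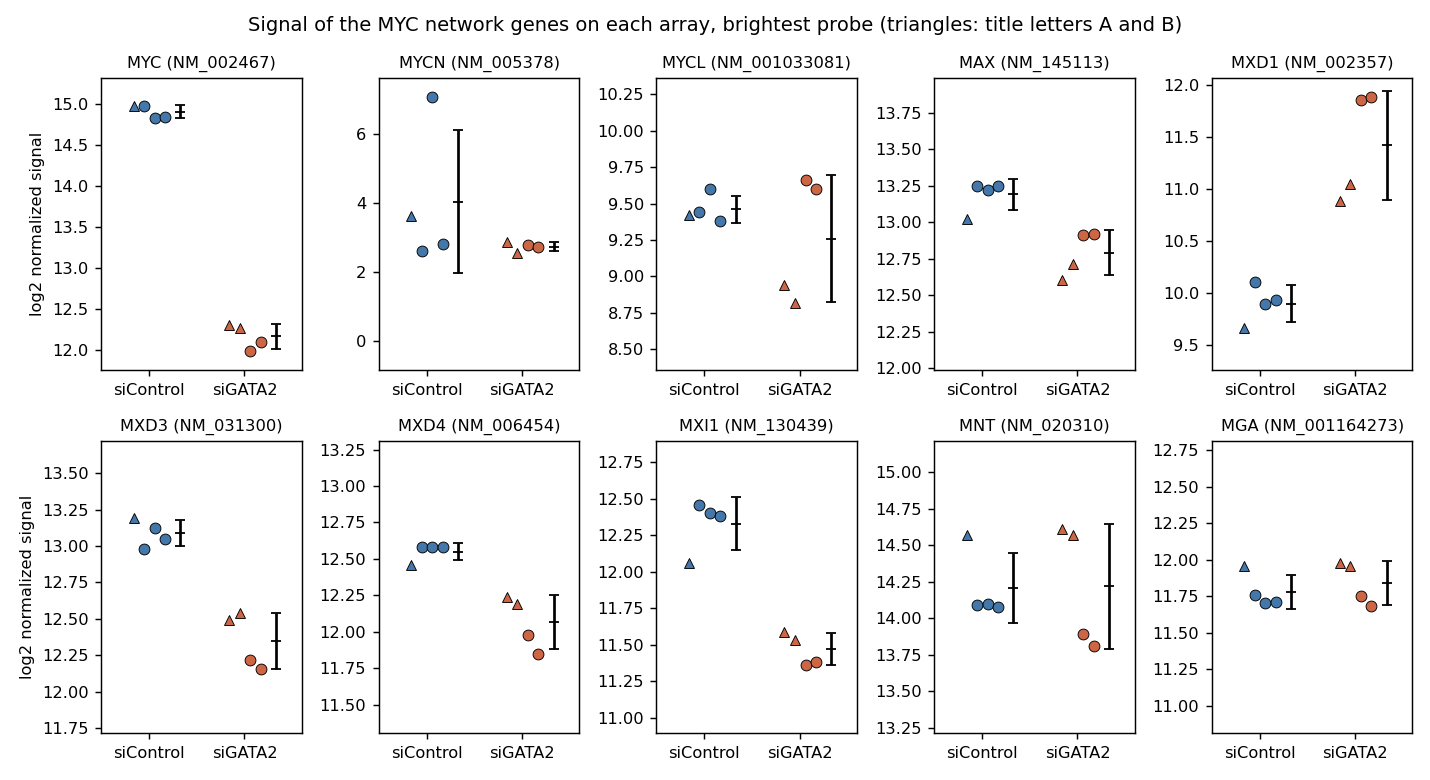
The log2 normalized signal of the brightest probe of each network gene is plotted for the 4 siControl (blue) and 4 siGATA2 (red) arrays, with the group mean and SD as a bar beside the points and triangles for arrays whose titles carry the letters A or B; each panel has its own axis. MYC lies between 11.98 and 12.30 in siGATA2 and between 14.83 and 14.98 in siControl, and in the MNT panel the 3 triangles lie above the 5 circles in both groups.

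MYC, the activating member of the network in most dividing cells, had the largest change of the 10 genes. Its signal (NM_002467) was 12.30, 12.26, 11.98 and 12.09 on siGATA2 arrays 1 to 4, and 14.98, 14.98, 14.83 and 14.84 on siControl arrays 1 to 4. Every siGATA2 array lay more than 2 log2 units below every siControl array. The means were 12.16 ± 0.150 (SD, n = 4) and 14.91 ± 0.082 (SD, n = 4), a difference of -2.75 (SE 0.113, 95% confidence interval -3.01 to -2.49, adjusted p = 1.33e-05 from limma), or 6.73-fold lower. An exact two-sided permutation test on this probe gave p = 0.0286, the smallest that 4 arrays against 4 allow. Of the 28850 genes, 130 had a larger fall. The probe is printed 10 times on each array, and its spots differed by an SD of 0.031 to 0.060 on the log2 scale within an array, which is less than the spread between arrays. The difference was -2.85 among letters D to G and -2.70 among letters A and B, where 2 arrays met 1 and no test was made. Over 26 alternatives it ran from -3.43 to -2.69 and was called in all 26. Taken relative to the median of all probes it was -2.83 as reported and -3.00 with spike-in scaling.

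MYCN, which takes the place of MYC in neural tissue and in neuroendocrine tumours, did not rise well above background on any of the 8 arrays. Its processed signal was 2.86, 2.55, 2.79 and 2.73 in siGATA2 and 3.63, 2.61, 7.06 and 2.80 in siControl, and siControl array 3 stood apart from the other 7. No fold is given, and the difference was not called (adjusted p = 0.332). MYCL, the third MYC protein, was measured by a probe for each of 2 transcripts. NM_001033081 gave 8.94, 8.82, 9.66 and 9.60 in siGATA2 and 9.42, 9.44, 9.60 and 9.38 in siControl. The groups overlapped, and the difference of -0.20 (95% confidence interval -0.69 to 0.29, adjusted p = 0.521) turned to 0.16 among letters D to G. NM_005376, well above background on 4 siGATA2 and 2 siControl arrays, differed by 0.10 (SE 0.291, adjusted p = 0.83). Neither of the other MYC genes was therefore called in either direction.

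MAX, the partner without which neither MYC nor its antagonists bind DNA, changed little beside MYC. Its brightest probe (NM_145113) gave 12.60, 12.71, 12.91 and 12.92 in siGATA2 and 13.02, 13.25, 13.22 and 13.25 in siControl. The groups did not overlap, but the gap between siGATA2 array 4 and siControl array 1 was narrow. The difference was -0.40 (SE 0.119, 95% confidence interval -0.67 to -0.13, adjusted p = 0.0394), or 1.32-fold lower. It was -0.33 (adjusted p = 0.00905) among letters D to G. Its direction was the same in all 26 alternatives and it was called in 14 of them, and without any 1 array other than siGATA2 array 4 and siControl array 1 its adjusted p ran from 0.0507 to 0.106. The probes for NM_197957 and NM_145114 gave -0.16 (adjusted p = 0.513) and -0.50 (adjusted p = 0.216) and overlapped between groups. MAX was thus called lower by 1 of its 3 probes.

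MXD1, known for its rise when cells leave the cycle and differentiate, was the only member called higher. Its brightest probe (NM_002357) gave 10.89, 11.05, 11.86 and 11.88 in siGATA2 and 9.67, 10.11, 9.90 and 9.93 in siControl. All siGATA2 arrays lay above all siControl arrays, and siGATA2 arrays 3 and 4 lay above siGATA2 arrays 1 and 2. The means were 11.42 ± 0.523 (SD, n = 4) and 9.90 ± 0.180 (SD, n = 4), a difference of 1.52 (SE 0.255, 95% confidence interval 0.93 to 2.11, adjusted p = 0.0033), or 2.86-fold higher, and 744 genes had a larger rise. The other probe for the same transcript gave 1.48 (SE 0.347, adjusted p = 0.0151), with 8.14, 7.79, 9.33 and 9.03 in siGATA2 and 6.74, 7.35, 7.02 and 7.24 in siControl. Both probes thus gave the same direction and nearly the same size. The difference of the brightest probe was 1.89 (adjusted p = 0.000492) among letters D to G and 1.30, untested, among letters A and B. It was called in 25 of 26 alternatives, and with spike-in scaling it was 0.93 (adjusted p = 0.313). Spike-in scaling without siControl array 1 gave 1.27 (adjusted p = 0.0187 from limma).

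The other MXD proteins moved the opposite way from MXD1. MXI1, also known as MXD2, was lower by all 3 of its probes. The brightest (NM_130439) gave 11.59, 11.53, 11.36 and 11.38 in siGATA2 and 12.06, 12.46, 12.40 and 12.38 in siControl. The groups did not overlap, and the difference was -0.86 (SE 0.125, adjusted p = 0.00163), or 1.82-fold lower. A further probe for NM_130439 gave -0.81 (SE 0.180, adjusted p = 0.0125), and the probe for NM_005962 gave -0.91 (SE 0.200, adjusted p = 0.0113). The call of the brightest probe was kept in 25 of 26 alternatives, and with spike-in scaling the adjusted p was 0.0543 at -1.50. Without siControl array 1 that scaling gave -1.21 (adjusted p = 0.00256 from limma). Among letters D to G the difference of this probe was -1.04 (adjusted p = 0.000638).

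MXD3, the MXD protein that is made during S phase in cycling cells, was lower by its brightest probe. That probe (NM_031300) gave 12.49, 12.54, 12.22 and 12.16 in siGATA2 and 13.19, 12.98, 13.12 and 13.05 in siControl. The groups did not overlap, and the difference was -0.73 (SE 0.126, 95% confidence interval -1.02 to -0.44, adjusted p = 0.00358). The probe for NM_001142935 gave 7.36, 7.16, 5.79 and 5.62 in siGATA2 and 7.53, 6.72, 6.89 and 6.91 in siControl. Its groups overlapped and it was not called (-0.53, SE 0.432, adjusted p = 0.403), while in a fit that blocks on the 2 sets of letters it was -0.83 (adjusted p = 0.0101). The brightest probe was called in 24 of 26 alternatives and gave -0.86 (adjusted p = 0.00149) among letters D to G.

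MXD4, whose promoter window with an E-box is shown above, was lower by both of its probes for NM_006454. The brightest gave 12.24, 12.19, 11.98 and 11.85 in siGATA2 and 12.46, 12.58, 12.58 and 12.58 in siControl. The other gave 11.10, 11.18, 11.02 and 11.04 in siGATA2 and 11.23, 11.66, 11.52 and 11.71 in siControl. Neither probe overlapped between groups, and siControl array 1 lay closest to the siGATA2 arrays on both. The differences were -0.48 (SE 0.120, adjusted p = 0.0195) and -0.45 (SE 0.130, adjusted p = 0.0369), and the first was called in 19 of 26 alternatives. Its call was lost without siGATA2 array 3 or without siControl array 2, 3 or 4, at adjusted p-values of 0.0514 to 0.0587 and differences of -0.48 to -0.46. It was -0.67 (adjusted p = 0.00238) among letters D to G.

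MNT and MGA, the large antagonists that are present in most cells, were not called. The brightest probe of MNT (NM_020310), whose promoter also holds an E-box, gave 14.61, 14.57, 13.89 and 13.81 in siGATA2 and 14.57, 14.09, 14.10 and 14.08 in siControl. Its level followed the letters of the array titles, with 14.57 to 14.61 under letters A and B and 13.81 to 14.10 under letters D to G. Within letters D to G the siGATA2 arrays (13.89 and 13.81) lay below the siControl arrays (14.08 to 14.10). The difference was 0.01 (95% confidence interval -0.52 to 0.54, adjusted p = 0.973), and it turned to -0.11 with scaling to the 75th percentile, to -0.71 with spike-in scaling and to -0.24 (adjusted p = 0.0294) among letters D to G, the only alternative that called it. The other MNT probe gave -0.36 (SE 0.162, adjusted p = 0.148), and -0.40 (adjusted p = 0.0111) among letters D to G. MGA (NM_001164273) gave 11.98, 11.96, 11.75 and 11.68 in siGATA2 and 11.96, 11.76, 11.70 and 11.71 in siControl, a difference of 0.06 (95% confidence interval -0.22 to 0.34, adjusted p = 0.742) that turned to -0.58 with spike-in scaling. The probe for NM_001080541 showed the letters again, with 9.02 to 9.15 under A and B and 7.55 to 7.78 under D to G, and a difference of 0.29 (SE 0.485, adjusted p = 0.691).

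**Figure D2:**
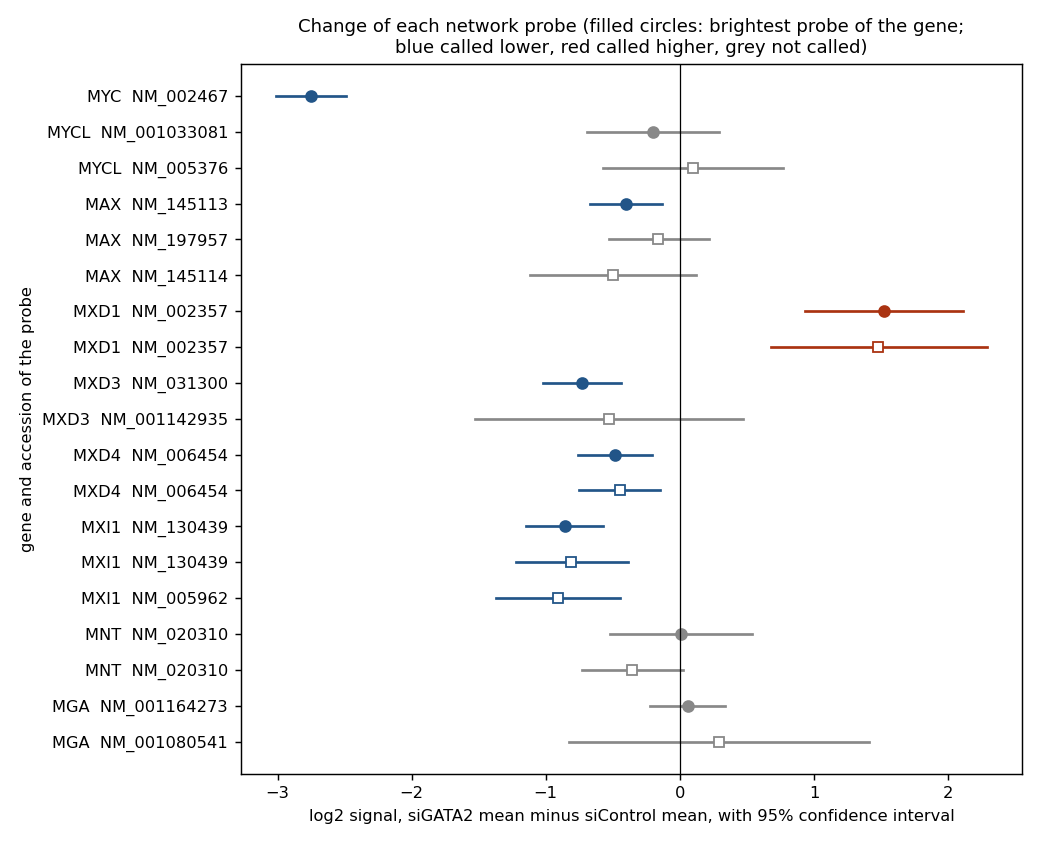
The siGATA2 minus siControl difference in log2 signal is plotted for the 19 network probes other than that of MYCN, with 95% confidence intervals; filled circles are the brightest probe of each gene and open squares its other probes. MYC lies at -2.75 on the far left, both MXD1 probes lie to the right of 0, and the probes of MXD3, MXD4 and MXI1 all lie to the left of 0, with 1 MXD3 probe whose interval includes 0.

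The balance between the partners of MAX was read as the difference of each member from the brightest MAX probe of the same array after quantile normalization. Such a difference is free of any 1 factor per array, though not of the normalization itself, and shows unequal change only. Relative to MAX, MYC fell by 2.35 (SE 0.170, adjusted p = 7.55e-05 from limma) and MXD1 rose by 1.92 (SE 0.186, adjusted p = 0.000225), against 8.4% of all genes lower and 38.5% higher than MAX by the same test. Both calls were kept in all 10 alternatives of this comparison. MXI1 differed from MAX by -0.46 (SE 0.145, adjusted p = 0.0328), a call kept in 3 of the 10 alternatives. MGA (0.46, adjusted p = 0.0715) was not called, but was called higher than MAX in 3 of the 10 alternatives, with the replicate block (adjusted p = 0.0371), without siGATA2 array 4 (0.0492) and without siControl array 1 (0.032). For MXD3 (-0.33, adjusted p = 0.173), MXD4 (-0.08, adjusted p = 0.692), MNT (0.41, adjusted p = 0.283) and MYCL (0.20, adjusted p = 0.329) no unequal change was called. Across the 8 arrays the signal of MYC correlated with those of MXD3 at 0.96, MXI1 at 0.96, MXD4 at 0.92, MAX at 0.83 and MXD1 at -0.94, and with MNT at 0.04 and MGA at -0.18. These values describe 2 groups of 4 arrays that share their scaling, and carry no test.

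The MLX arm is a parallel branch in which MLX takes the place of MAX beside the glucose-sensing factors MLXIP and MLXIPL, and the arrestin-like genes TXNIP and ARRDC4 are its best known targets. Both targets were lower, and of the 5 genes 2 were lower and 1 higher, against 14.2% and 12.3% of all genes. TXNIP gave 12.37, 12.22, 11.80 and 11.73 in siGATA2 and 13.71, 13.36, 13.12 and 13.08 in siControl, a difference of -1.28 (SE 0.204, adjusted p = 0.00248). ARRDC4 differed by -1.41 (SE 0.142, adjusted p = 0.000255), and both were called in all 26 alternatives. MLX itself was called higher (0.48, SE 0.118, adjusted p = 0.0188) but turned to -0.19 with spike-in scaling. MLXIP (-0.75, adjusted p = 0.148) and MLXIPL (0.25, adjusted p = 0.782, and -0.37 with spike-in scaling) were not called, and both differed between siGATA2 arrays 1 and 2 and siGATA2 arrays 3 and 4. MLXIP lay at 14.04 on each of the former and at 12.75 and 12.73 on the latter. Spike-in scaling without siControl array 1 gave 0.10 (adjusted p = 0.736 from limma) for MLX and 0.37 (adjusted p = 0.687) for MLXIPL.

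The SIN3 and NCOR corepressors are the deacetylase complexes that MXD proteins and MNT bring to DNA. Of 12 subunits, 5 were lower and 2 higher, against 14.2% and 12.3% of all genes, with a median of -0.22. SAP30, a SIN3 subunit, had the largest fall (-1.70, SE 0.136, adjusted p = 9.36e-05), followed by the histone chaperone RBBP4 (-1.20, SE 0.095, adjusted p = 8.86e-05) and BRMS1 (-0.73, SE 0.195, adjusted p = 0.026). RBBP7 (-0.71) and the deacetylase HDAC2 (-0.53), named after their values were seen, completed the 5. SAP18 was higher (1.12, SE 0.198, adjusted p = 0.0041), and so was NCOR1 (0.50, SE 0.125, adjusted p = 0.0205). With spike-in scaling neither was called higher, as SAP18 was 0.54 (adjusted p = 0.600) and NCOR1 turned to -0.16. Without siControl array 1 that scaling gave 0.85 (adjusted p = 0.0327 from limma) for SAP18 and 0.25 (adjusted p = 0.397) for NCOR1. Of 9 subunits of the Polycomb-type complex that holds MGA, 1 was lower, the E2F partner TFDP1 (-0.65, SE 0.106, adjusted p = 0.00274), and 1 higher, the ubiquitin ligase RING1 (0.79, SE 0.186, adjusted p = 0.0159), with a median of -0.18, and these counts stand beside 14.2% lower and 12.3% higher over all genes. With spike-in scaling RING1 was 0.14 (adjusted p = 0.913), and 0.46 (adjusted p = 0.213 from limma) when siControl array 1 was left out.

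Among 15 coactivators and cofactors of MYC, 5 were lower and 2 higher, against 14.2% and 12.3% of all genes, with a median of -0.32. TFAP4, a factor encoded by a MYC target gene, differed by -1.33 (SE 0.188, adjusted p = 0.00139, and -0.58 with normexp background correction). Its probe was well above background on 4 siGATA2 and 3 siControl arrays, at means of 5.03 and 6.36. HCFC1, a chromatin adaptor, differed by -0.97 (SE 0.171, adjusted p = 0.00416), and ACTL6A, a subunit of chromatin remodelling complexes, by -0.79 (SE 0.135, adjusted p = 0.00358). WDR5 (-0.67), which anchors MYC on chromatin and was named after its values were seen, was lower too. The 2 subunits of the elongation kinase P-TEFb were higher, CDK9 by 0.66 (SE 0.153, adjusted p = 0.0147) and CCNT1 by 0.46 (SE 0.115, adjusted p = 0.0201), but CCNT1 turned to -0.17 and CDK9 to 0.03 with spike-in scaling. That scaling without siControl array 1 gave 0.15 (adjusted p = 0.602 from limma) for CCNT1 and 0.51 (adjusted p = 0.114) for CDK9.

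Among 12 genes for the turnover of MYC protein, 3 were lower and 2 higher, against 14.2% and 12.3% of all genes, with a median of -0.15. SKP2, a ubiquitin ligase subunit that is itself tied to the cell cycle, had signals of 7.11 to 7.49 in siGATA2 and 8.61 to 9.28 in siControl, a difference of -1.66 (SE 0.166, adjusted p = 0.000246). FBXW7, the ligase subunit that recognizes phosphorylated MYC, was lower by a smaller amount (-0.66, SE 0.149, adjusted p = 0.0131). CIP2A, which protects MYC from a phosphatase, was well above background on 1 siGATA2 and 3 siControl arrays and was called lower (-2.53, SE 0.257, adjusted p = 0.000263), by -0.72 with normexp background correction. It was named after its values were seen. The kinase GSK3B (0.67, SE 0.182, adjusted p = 0.0289) and the phosphatase subunit PPP2R5A (1.06, SE 0.216, adjusted p = 0.00835), both of which act on MYC for its breakdown, were called higher. With spike-in scaling they were 0.03 (adjusted p = 0.982) and 0.44 (adjusted p = 0.684), and GSK3B was called in 15 of 26 alternatives. When siControl array 1 was left out of that scaling, GSK3B was 0.33 (adjusted p = 0.384 from limma) and PPP2R5A 0.72 (adjusted p = 0.0817).

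Of 10 genes that act on the MYC gene or its mRNA, 0 were lower and 2 were higher by limma, against 14.2% and 12.3% of all genes, with a median of 0.08, against 0.09 for all genes. At an unadjusted p under 0.05 the lower count was also 0, as by the methods' t-test. The 2 were TCF7L2 (0.68, SE 0.192, adjusted p = 0.0331) and its partner CTNNB1 (0.54, SE 0.111, adjusted p = 0.00893), which carry WNT signals to MYC, and with spike-in scaling TCF7L2 was 0.24 (adjusted p = 0.841) and CTNNB1 turned to -0.16. Without siControl array 1 that scaling gave 0.57 (adjusted p = 0.0606 from limma) for TCF7L2 and 0.28 (adjusted p = 0.325) for CTNNB1. PVT1, the noncoding RNA transcribed next to MYC, gave 12.38, 12.54, 12.37 and 12.33 in siGATA2 and 12.51, 12.45, 12.67 and 12.66 in siControl. These values overlapped, and the difference of -0.17 (SE 0.106, adjusted p = 0.28) was not called, beside the difference of -2.75 in MYC.

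**Figure D3:**
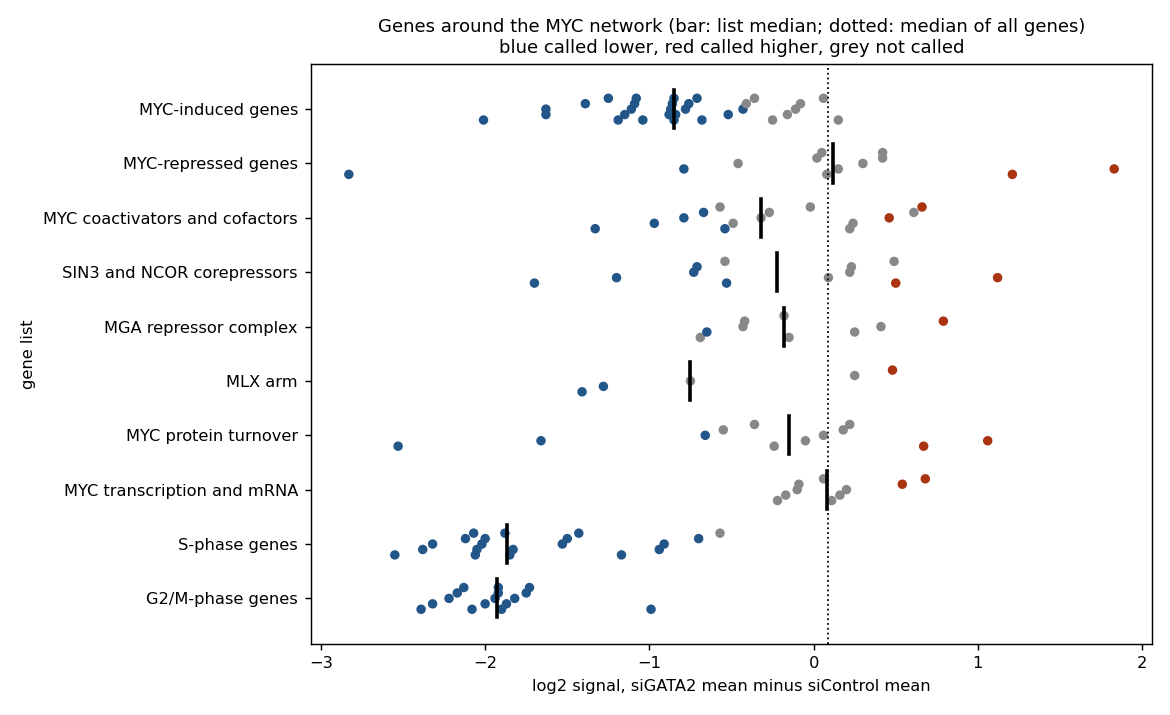
Each point is the siGATA2 minus siControl difference in log2 signal of 1 gene by its brightest probe, grouped by list, with a bar at the median of the list and a dotted line at the median of all genes, 0.09; blue points were called lower, red points higher and grey points neither. The MYC-induced genes have 23 blue points and 0 red points around a median of -0.85, while the MYC-repressed genes have 2 of each colour around 0.12.

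Known targets of MYC were set beside the network itself. Their lists, like the other gene lists here, were chosen with earlier results of these data known. Of 31 MYC-induced genes tested, 23 were lower and 0 were higher, against 14.2% and 12.3% of all genes, and 8 were not called, with a median of -0.85 against 0.09 over all genes, and 11 fell by at least 2-fold. The higher count was 0 by limma, at an unadjusted p under 0.05 and by the methods' t-test. IMPDH2, which makes guanine nucleotides, gave 12.04, 11.96, 12.05 and 12.05 in siGATA2 and 14.06, 14.10, 13.96 and 14.02 in siControl, a difference of -2.01 (SE 0.091, adjusted p = 1.45e-05). FBL, the methyltransferase of the nucleolus, gave 15.57 to 15.81 in siGATA2 and 17.06 to 17.40 in siControl, a difference of -1.63 (SE 0.121, adjusted p = 6.61e-05). SRM, spermidine synthase, gave 12.99 to 13.23 in siGATA2 and 14.26 to 14.94 in siControl, a difference of -1.63 (SE 0.171, adjusted p = 0.000303). For all 3 genes the groups lay apart, and each was called in all 26 alternatives. The 8 genes that were not called lay between -0.41 and 0.15. Genes of cell division were lower in the same arrays, 19 of 20 S-phase genes (median -1.87, led by TYMS, CDC45 and GINS2) and 16 of 16 G2/M-phase genes (median -1.93, led by CENPE, BUB1B and TTK). Their part in the values of MYC and its targets was not tested.

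An E-box was found both among the MYC-induced genes called lower and among those that were not. It lay in 8 of 19 matched promoters of those called lower (42.1%) and in 3 of 7 of those not called lower (42.9%), a description with no test. The 3 were LDHA, HSPD1 and HSPE1. The last share the same E-box, which is counted for both genes, and 7 promoters are too few to compare the shares. The 4 genes whose windows are printed above were chosen both for their motif and for these differences, and only illustrate them. SRM differed by -1.63 and CDK4, the kinase of the G1 phase, by -1.19 (SE 0.160, adjusted p = 0.00108). LDHA, lactate dehydrogenase (-0.16, SE 0.195, adjusted p = 0.589), and HSPD1, a mitochondrial chaperonin (-0.08, SE 0.090, adjusted p = 0.571), were not called. Of the members with the motif, MXD4 was called lower and MNT was not. Over all genes tested with a promoter, the motif lay in 12.5% of 2741 called lower, in 8.98% of 2138 called higher and in 8.26% of 9042 not called.

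Of 12 MYC-repressed genes, 2 were lower and 2 were higher, against 14.2% and 12.3% of all genes, and 8 were not called, with a median of 0.12 that turned to -0.42 with spike-in scaling. CDKN1C, an inhibitor of cyclin-dependent kinases, gave 13.92, 13.81, 14.04 and 14.01 in siGATA2 and 12.05, 12.14, 12.23 and 12.03 in siControl, a difference of 1.83 (SE 0.105, adjusted p = 2.56e-05). NDRG1, a gene of growth arrest and hypoxia, gave 15.97 to 16.28 in siGATA2 and 14.76 to 15.10 in siControl, a difference of 1.21 (SE 0.124, adjusted p = 0.000284). Both rises were called in 25 of 26 alternatives, the exception being spike-in scaling. CEBPA, a differentiation factor, was lower (-0.79, SE 0.104, adjusted p = 0.001). PDGFRB, a growth factor receptor named after its values were seen, was called lower (-2.83, SE 0.355, adjusted p = 0.000763) but was well above background on only 2 siGATA2 and 3 siControl arrays and gave -0.97 with normexp background correction. The count called higher was 4 with the sets of title letters as a block and 5 among letters D to G. Calls over all probes rose in these fits too, with 9022 and 8690 called higher against 4447 as reported.

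The genes whose signals followed that of MYC most closely were found by Pearson correlation over the 8 arrays among 13141 named genes that were well above background on all of them. The 5 with the highest values were FDXR (0.9998), a mitochondrial reductase, COL5A2 (0.9994), a collagen chain, BDKRB1 (0.9992), a bradykinin receptor, ARF5 (0.9990), a small GTPase, and STEAP3 (0.9989), a metalloreductase. Their differences between groups ran from -3.40 for COL5A2 to -1.51 for FDXR. The 5 with the lowest values were ST6GALNAC6 (-0.9989), ZNF564 (-0.9988), DIP2C (-0.9983), ORMDL3 (-0.9981) and TMEM116 (-0.9979), with differences from 0.68 for ORMDL3 to 1.26 for ZNF564. These correlations hold the difference between the groups within them. Within groups, after each group mean was removed, the correlation with MYC was 0.96 for FDXR, 0.91 for COL5A2 and -0.66 for DIP2C. The genes were picked by their correlation over the same 8 arrays, so these values are no separate check.

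**Figure D4:**
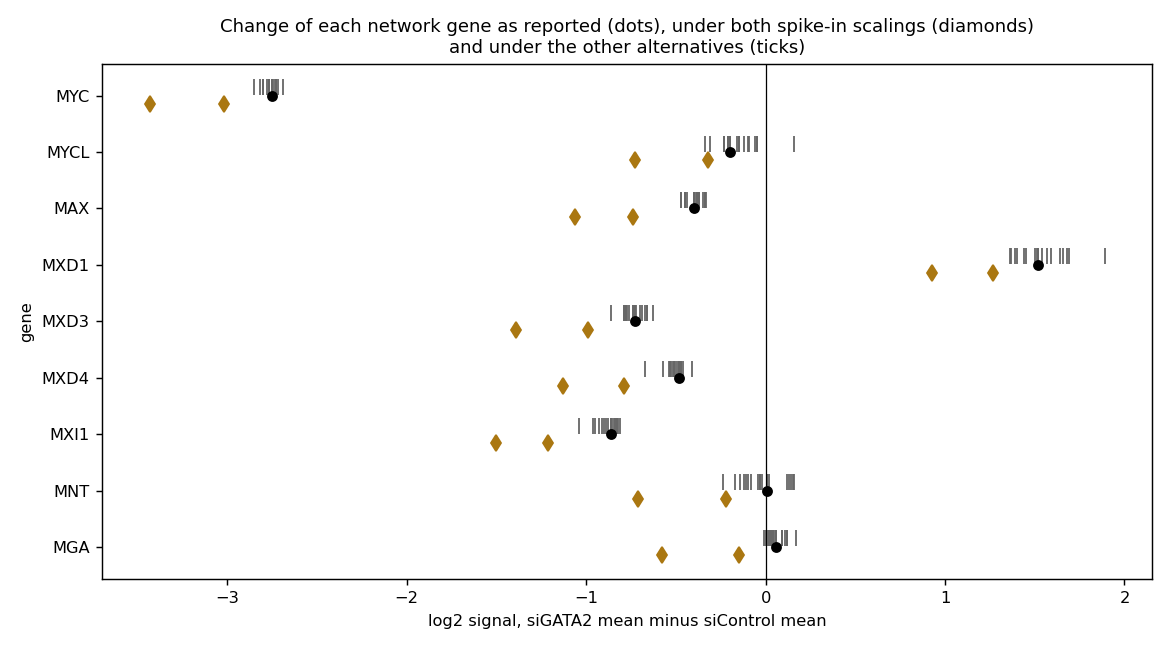
The siGATA2 minus siControl difference in log2 signal of each network gene other than MYCN is plotted as reported (dots), under both spike-in scalings (diamonds) and under the other alternatives (ticks). MYC stays between -3.43 and -2.69 and MXD1 between 0.93 and 1.89, while MNT and MGA lie on both sides of 0.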

How the data were processed

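RNA of LNCaP cells was measured on 4 siGATA2 and 4 siControl one-colour Agilent arrays, with groups from the labels. Spot intensity values and quality flags were deposited by the authors as Agilent Feature Extraction 11.0.1.1 (submitters' processing notes) wrote them, and a matrix of log2 values, quantile-normalized in GeneSpring per the methods. The methods and the array files name different array designs, and the annotation of the files was used. All arrays lay on 1 slide, so slide as a block was not run. Arrays have no read depth, and 4 per group limit the precision.

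From the deposited processed intensity, outlier spots were dropped, the log2 values of a probe's spots were averaged and arrays were quantile-normalized with limma 3.58.1 in R 4.3.3. Of 42405 probes, 27902 had a RefSeq accession and 26364 of these matched a symbol. Unannotated probes (1914) and those with a mean log2 signal under 3 were removed, and each gene was read by its brightest probe. Groups were compared with lmFit and eBayes and Benjamini-Hochberg adjustment over 35514 probes. The fit was also run on simulated data with independent noise on each array. Such data lack the deviations that these arrays share, so the calls were not checked under them. The methods' t-test was an alternative, as were other scalings, background corrections, filters, blocks and sets of arrays. Normexp used the median signal of the spots, with an offset of 50. The 3 alternatives that set title letters A and B apart or scale to spike-ins without siControl array 1 were chosen after seeing the data.

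The members, the gene lists and the rule for named genes were chosen with earlier results of these data known. The rule names all members and their probes, MLX, MLXIP, MLXIPL, PVT1 and GATA2, the 3 called genes of each list with the largest fall and rise that were well above background throughout at least 1 group, and the 5 genes most and least like MYC across arrays. CCND2, COL3A1 and LUM failed the filter and USP36 was not named on the array. The values of 1 listed gene are not reported here.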

Additional observations from a re-analysis of the deposited data

Results flagged for a closer look

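In 4 of the 40 groups of 4 arrays examined, 1 for each probe of a member and each label, a single array stood apart from the other 3 by more than Dixon's 95% limit, which chance passes in about 1 of 20 groups. In all 4 it was siControl array 1. MAX (NM_145113) was 13.02 on that array, against 13.22 to 13.25 on the other siControl arrays, and the gap was 0.832 of the group's range. The brightest MXD4 probe (NM_006454) was 12.46, against 12.58 on each of the others (0.970 of the range). The brightest MNT probe (NM_020310) was 14.57, against 14.08 to 14.10 (0.965), and MGA by NM_001080541 was 9.02, against 7.72 to 7.78 (0.957). Without siControl array 1 the difference was -0.45 for MAX (adjusted p = 0.0239 from limma) and 0.13 for MNT (adjusted p = 0.691).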

How the results depend on the processing

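The differences of MYC, MAX, MXD1, MXD3, MXD4 and MXI1 kept their direction in all 26 alternatives, and MYC was called in each. With E1A spike-in scaling the count of members called lower was 1 and called higher 0, against 5 and 1 as reported, with 15 MYC-induced genes lower against 23, and 1 MYC-repressed gene lower and 0 higher against 2 and 2. Its values were -0.71 for MNT, -0.58 for MGA and -0.43 for the median of all probes, and without siControl array 1 they were -0.22, -0.15 and -0.01. The spike-in counts of members without that array were 5 lower and 1 higher, the same as reported. Members called lower numbered 3 with the mean over the probes of a gene and with siControl arrays 2 and 4 only. Leaving out 1 array gave 3 to 5, with 3 without siGATA2 array 3 or siControl array 2, 3 or 4, and 20 to 25 lower MYC-induced genes. With the 2 sets of title letters (A and B, D to G) as a block, 1 MYC-induced and 4 MYC-repressed genes were higher, MNT was -0.14 and MGA 0.00. Among letters D to G only, 5 MYC-repressed genes were higher, MYCL was 0.16, MNT -0.24 and MGA -0.01. Over all probes, 9022 were called higher with that block and 8690 among letters D to G, against 4447 as reported. MNT was also -0.11 with 75th percentile scaling, -0.04 with title letter as a random block, -0.08 with slide row as a block, -0.17 with the mean over probes, and -0.12 to 0.15 without 1 array. Relative to MAX, leaving out 1 array gave -0.20 to 0.03 for MXD4. MYCN, whose signal was not well above background on any of the 8 arrays, so that its differences measure no fold, gave 0.03 with siControl arrays 2 and 4 only and -1.39 to 0.11 relative to MAX without 1 array. The cause of these changes was not tested.

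Replicate numbers did not pair the arrays, as arrays of the same number deviated from their groups with correlations of 0.53, -0.31, 0.17 and 0.23. With the replicate block 3 members were called lower, as MAX (adjusted p = 0.0661) and MXD4 (0.0625) lost their calls at differences of -0.40 and -0.48, and MYC stayed at -2.75 (adjusted p = 0.00193).

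Counts of the smaller lists moved with the setting, as did those over all probes or genes, from 2436 to 7285 lower and from 171 to 9022 higher. Over the 26 alternatives, corepressors ran from 2 to 6 lower and 0 to 4 higher, coactivators from 0 to 9 and 0 to 4, turnover genes from 2 to 6 and 0 to 4, the MGA complex from 0 to 4 and 0 to 3, the MLX arm from 2 to 4 and 0 to 1, and genes acting on MYC transcription or mRNA from 0 to 0 and 0 to 4. Signal near background limits MYCN, CIP2A, PDGFRB and TFAP4, and siControl arrays 1 and 3 had the fewest probes well above background.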
